A study of Mus musculus with 3 samples.

Results

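The genes described here are 7 members of the AP-1 transcription factor family, Fos, Fosb, Fosl2, Jun, Junb, Jund and Atf3, taken by name from the family, with earlier results of these data known. All 7 were among the 29787 genes with a transcript in the count tables, and all 7 were among the 16604 genes that reached a level of 1 CPM (normalised count, scaled to library size) in at least 1 of the 3 libraries. The study sequenced RNA of brain vessels, with 1 library per group, all from mice aged 3 months. The Cx43-deleted mice were hGFAP-Cre/Cx43fl/fl, in which Cre under the human GFAP promoter removes the connexin 43 gene (Gja1) from astroglia, on a C57BL6-BALB/c background. The WT C57BL6-BALB/c mice shared that background, and the WT C57BL6 mice did not. The labels say nothing of Cre or floxed alleles in the WT mice, and the sources used here do not give the number of animals behind a library. There were no replicates, so no test could be made and every comparison is between single libraries.

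AP-1 is a dimer of basic leucine zipper (bZIP) proteins that binds DNA and turns gene transcription up or down. FOS proteins need a JUN partner to bind, JUN proteins can also pair with each other, and ATF3 pairs with JUN proteins or with itself. Most of these genes are immediate early genes: kinase and calcium signals acting through SRF, its partner factors and CREB switch them on within minutes of a stimulus, and their RNAs are short-lived. In brain, neuronal activity is a well-known stimulus of Fos and Fosb, while flow, stretch, injury and tissue handling induce family members in vessel cells.

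Since these genes are controlled at their starts, the RefSeq sequence just before the start is shown for the 5 members whose RefSeq start lay within 100 bases of the start of the transcript counted here. Each line gives the last 120 bases before the start, from the C57BL/6J reference on GRCm38.p6. Capitals mark TGACG, the core of the CRE bound by CREB and ATF proteins (CGTCA on the other strand), a TATAAA box, or TGACATCA, the variant AP-1 site of the Jun promoter.
Fos (chr12:85473770-85473889, plus strand): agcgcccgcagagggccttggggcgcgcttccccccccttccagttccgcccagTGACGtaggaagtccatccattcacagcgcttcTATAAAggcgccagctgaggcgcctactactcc
Fosb (chr7:19310046-19310165, minus strand): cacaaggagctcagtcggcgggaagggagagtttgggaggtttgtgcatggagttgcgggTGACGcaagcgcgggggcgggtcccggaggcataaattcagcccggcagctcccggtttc
Jun (chr4:95052223-95052342, minus strand): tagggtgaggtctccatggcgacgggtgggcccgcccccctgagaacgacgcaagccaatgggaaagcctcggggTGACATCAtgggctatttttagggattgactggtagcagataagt
Junb (chr8:84978749-84978868, minus strand): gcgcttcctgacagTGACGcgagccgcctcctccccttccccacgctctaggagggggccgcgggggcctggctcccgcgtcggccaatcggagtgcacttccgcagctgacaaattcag
Atf3 (chr1:191183334-191183453, minus strand): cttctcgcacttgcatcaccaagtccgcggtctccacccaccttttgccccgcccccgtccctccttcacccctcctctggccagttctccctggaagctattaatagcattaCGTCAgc

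Both strands of the 250 bases before each start were searched. TGACG was found before Fos, Fosb, Junb and Atf3, in 4 of 5 windows, and in 17.8% of 32851 RefSeq windows of the same length. Fos had it at 129 to 125 and at 66 to 62 bases before the start, Fosb at 60 to 56, Junb at 106 to 102, and Atf3 at 7 to 3 on the other strand. TGACATCA was found only before Jun, at 45 to 38 bases before the start, and in 2.93% of all windows. TATAAA was found only before Fos and in 12.4% of all windows. GGGCGG, the GC box, was found before Fos, Fosb, Jun and Atf3 and in 32.7% of all windows. The full CRE TGACGTCA, the AP-1 site TGANTCA and the CArG box of SRF were found in 0 of the 5 windows, and in 1.55%, 6.75% and 1.47% of all windows. TGACG is also a part of TGACGTCA. A match is a match of letters in this window and no more, and these mice may differ from the reference strain. Bases further from the start were not searched, so a count of 0 does not mean that a gene lacks the site. For Fosl2 and Jund the RefSeq start lay 671 and 1210 bases from that of the counted transcript, and their windows were not searched.

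**Figure D1:**
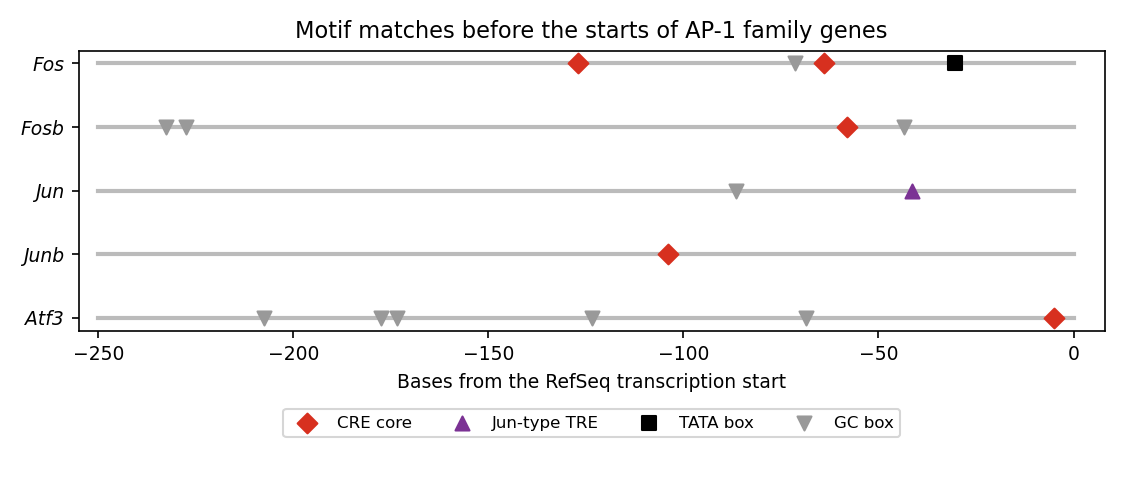
Positions of the motif matches in the 250 bases before the RefSeq start of 5 AP-1 family genes, in bases from the start (horizontal axis), with 1 line per gene and 1 symbol per kind of motif. CRE cores lie before Fos, Fosb, Junb and Atf3, and the variant AP-1 site (Jun-type TRE) lies before Jun alone.

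The Cx43-deleted library held 54975610 reads in all, that of WT C57BL6-BALB/c 21170766 and that of WT C57BL6 24830975, and values given in threes follow this order. Gja1, the deleted gene, had 2574, 4276 and 5138 reads and was 4.20-fold lower (4.001 to 4.41) than in WT C57BL6-BALB/c and 4.21-fold lower (4.02 to 4.42) than in WT C57BL6. All 15 endothelial markers, which define vessel cells, had reads in each library, and so did the neuron, glia and mural cell markers described further on. In what follows, reads are those of the most abundant transcript of the gene. A level per length is those reads scaled to transcript length and library size (RPKM). A fold is the ratio of scaled reads with its 95% exact binomial interval, which covers counting error only. A gene is called higher or lower at a log2 ratio of 1 (2-fold) or more in CPM, taken with a pseudocount of 0.5. In bulk RNA, fewer cells of a type and less RNA per cell cannot be told apart.

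All 7 genes were lower in the Cx43-deleted library than in either WT library, but by very different amounts. Fos, Fosb, Junb and Atf3 were lower than in each WT library by 2-fold or more, which makes 4 of 7 genes, where 0.379% of all measured genes were. Atf3 was at the limit, and without its call, lost with a pseudocount of 2 and with the most abundant transcript alone, the count was 3 of 7. Without regard to size, 7 of 7 were lowest in the Cx43-deleted library (35.6% of all genes) and 0 of 7 were highest in it (33.2% of all genes, and 0.428% of all genes by 2-fold). Against WT C57BL6-BALB/c alone the same 4 of 7 genes were called lower (1.01% of all genes), or 3 of 7 in those 2 alternatives, and against WT C57BL6 alone 6 of 7 were, all but Jund (2.91% of all genes). The 7 genes had a median log2 ratio to WT C57BL6-BALB/c of −1.02, where all measured genes had 0.0030. To WT C57BL6 the medians were −1.74 for the 7 and −0.033 for all. These comparisons share the Cx43-deleted library, so a low value in it enters both. Between the WT libraries 3 of 7 genes were called (3.26% of all genes): Fosb was higher in WT C57BL6-BALB/c, and Jun and Atf3 were higher in WT C57BL6.

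Fos (ENSMUSG00000021250; GRCm38 chromosome 12, 85473890 to 85477273, plus strand) encodes c-Fos, the founding member of the FOS family. The Cx43-deleted library held 904 Fos reads, WT C57BL6-BALB/c 2778 and WT C57BL6 2577, although the Cx43-deleted library was the deepest. Per length its level was 7.99, 62.1 and 48.1 RPKM. The Cx43-deleted library was therefore the low one, and the WT libraries were close to each other. The Cx43-deleted level was 7.77-fold lower (7.21 to 8.39) than in WT C57BL6-BALB/c and 6.02-fold lower (5.58 to 6.50) than in WT C57BL6, and the WT libraries differed by 1.29-fold (1.22 to 1.36). Among the 16604 measured genes, its log2 ratio to the nearer WT library, −2.48, was the lowest but 1.

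The reads of Fos covered nearly its whole transcript. Of its 2108 bases, 9, 39 and 3 had no read. The tables hold 3 further, non-coding Fos transcripts, which share most of their bases with the coding one and therefore its reads. The least overlapping of them has 69.3% of its bases in the coding transcript and had 243, 699 and 576 reads. It was 7.28-fold (6.28 to 8.46) and 5.01-fold (4.30 to 5.84) lower in the Cx43-deleted library, on the same side as the coding transcript.

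Fosb (ENSMUSG00000003545; GRCm38 chromosome 7, 19302696 to 19310051, minus strand) encodes FosB, whose truncated splice form ΔFosB is a long-lived protein that builds up in neurons under repeated stimulation. The Cx43-deleted library held 411 Fosb reads, WT C57BL6-BALB/c 6027 and WT C57BL6 962, or 2.04, 75.8 and 10.09 RPKM. No other member differed as much among the 3 libraries: the high value was that of WT C57BL6-BALB/c, and the other libraries were both far below it. The Cx43-deleted level was 37.1-fold lower (33.6 to 41.1) than in WT C57BL6-BALB/c and 4.94-fold lower (4.40 to 5.56) than in WT C57BL6. WT C57BL6-BALB/c was itself 7.51-fold above WT C57BL6 (7.01 to 8.04), a difference between mice without the deletion. Its log2 ratio to WT C57BL6-BALB/c, −5.12, was the fourth lowest of all measured genes. That of WT C57BL6-BALB/c to WT C57BL6, 2.89, was rank 13 from the highest. The tables hold 1 Fosb transcript, so FosB and ΔFosB RNA were not separated, and 315, 18 and 262 of its 3751 bases had no read.

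Fosl2 (ENSMUSG00000029135; GRCm38 chromosome 5, 32135801 to 32157842, plus strand) encodes Fra-2, a FOS family member without the strong activation domain of c-Fos. It had 626, 481 and 1023 reads, or 4.95, 9.62 and 17.1 RPKM. The 3 libraries were spread in steps, with WT C57BL6 highest. The Cx43-deleted library was 1.94-fold below WT C57BL6-BALB/c (1.72 to 2.19) and 3.45-fold below WT C57BL6 (3.12 to 3.82). The first of these was not called, and its interval includes 2-fold.

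Jun (ENSMUSG00000052684; GRCm38 chromosome 4, 95049034 to 95052222, minus strand) encodes c-Jun, the main partner of the FOS proteins and a target of the JNK kinases. The Cx43-deleted library held 2818 Jun reads, WT C57BL6-BALB/c 1251 and WT C57BL6 4229, or 16.5, 18.5 and 52.2 RPKM. WT C57BL6 was the high library, and the other libraries, which share a background, were close. The Cx43-deleted level was 3.17-fold below WT C57BL6 (3.02 to 3.32) but only 1.12-fold below WT C57BL6-BALB/c (1.05 to 1.20). Between the WT libraries Jun was 2.82-fold higher in WT C57BL6 (2.65 to 3.01). Of the bases of its transcript, 7.28% overlap the antisense gene Junos, and reads of the pair cannot be told apart there.

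Junb (ENSMUSG00000052837; GRCm38 chromosome 8, 84974484 to 84978718, minus strand) encodes JunB, which is weaker than c-Jun as an activator and can hold it back. It had 1171, 1117 and 1398 reads, or 21.1, 50.9 and 53.2 RPKM. As with Fos, the Cx43-deleted library was low and the WT libraries were close. It was 2.41-fold below WT C57BL6-BALB/c (2.22 to 2.62) and 2.52-fold below WT C57BL6 (2.33 to 2.73). The WT libraries differed by 1.04-fold, with an interval of 0.965 to 1.13. None of the 1035 bases of the Junb transcript in the tables was without a read in any library.

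Jund (ENSMUSG00000071076; GRCm38 chromosome 8, 70698949 to 70700616, plus strand) encodes JunD, the JUN protein that many cells make at rest and that responds least to stimuli. It had 2488, 1055 and 1742 reads, or 27.8, 29.8 and 41.1 RPKM, the narrowest range among the 7 genes. The Cx43-deleted library was 1.07-fold below WT C57BL6-BALB/c, with an interval (0.997 to 1.15) that includes no difference, and 1.48-fold below WT C57BL6 (1.39 to 1.57). Of the bases of its transcript, 52.6% overlap the gene Gm11175 on the other strand, so its level is uncertain.

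Atf3 (ENSMUSG00000026628; GRCm38 chromosome 1, 191170296 to 191218039, minus strand) encodes a stress-induced factor that mostly represses its targets. The Cx43-deleted library held 252 Atf3 reads, WT C57BL6-BALB/c 207 and WT C57BL6 574, or 2.37, 4.92 and 11.4 RPKM. The levels went up in steps in that order, as for Fosl2. The Cx43-deleted level was 2.08-fold below WT C57BL6-BALB/c (1.72 to 2.51) and 4.81-fold below WT C57BL6 (4.14 to 5.60). WT C57BL6 was 2.31-fold above WT C57BL6-BALB/c (1.97 to 2.73). The call against WT C57BL6-BALB/c rests on the choice of scale, since the log2 ratio was −1.02 as computed here, −0.88 with a pseudocount of 2 and −0.98 from the most abundant transcript alone.

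**Figure D2:**
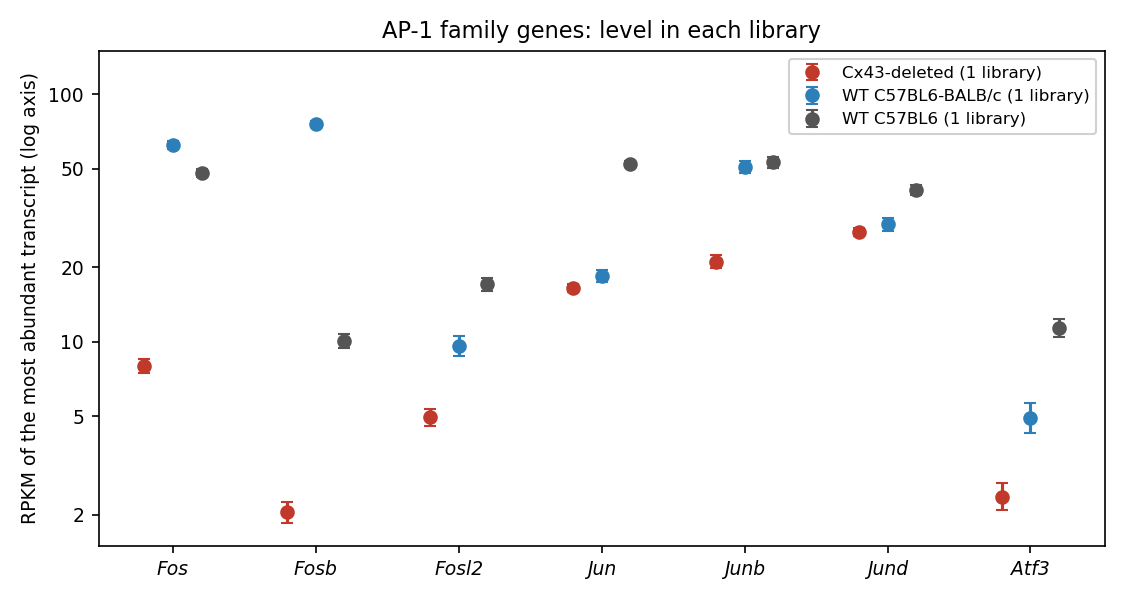
Level per length of the 7 genes (RPKM of the most abundant transcript, log axis) in each of the 3 libraries, with 95% Poisson counting intervals. The Cx43-deleted point is the lowest for every gene, WT C57BL6-BALB/c is the highest for Fos and Fosb, and WT C57BL6 is the highest for the other 5. For Junb the intervals of the WT libraries overlap.

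Per length, the order of the 7 genes differed between libraries. In the Cx43-deleted library Jund was the highest, followed by Junb, Jun, Fos, Fosl2, Atf3 and Fosb, and the counting intervals of Atf3 and Fosb overlapped. In WT C57BL6 the order was Junb, Jun, Fos, Jund, Fosl2, Atf3 and Fosb. There the intervals of Junb and Jun overlapped, as did those of Atf3 and Fosb. In WT C57BL6-BALB/c Fosb was the highest of the 7 and Fos came next, ahead of Junb, Jund, Jun, Fosl2 and Atf3, with no overlap between neighbours. The deposited transcripts of Junb (1035 bases) and Fosl2 (2357 bases) are shorter than those of GENCODE M21 (1809 and 6537 bases), so their place among the other genes depends on the transcript model.

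The 7 genes summed to 82.7 RPKM in the Cx43-deleted library, to 252 in WT C57BL6-BALB/c and to 233 in WT C57BL6, so the WT libraries had like sums of unlike make-up. Fos, Fosb and Fosl2 together made up 18.1%, 58.6% and 32.3% of that sum, and Jun, Junb and Jund 79.0%, 39.4% and 62.8%. The ratio of FOS-family to JUN-family RNA was thus 0.229, 1.49 and 0.514 in the same order. Fosb alone was 2.47%, 30.1% and 4.33% of the sum. The ratio of Fosb to Fos was 0.256 (0.227 to 0.287) in the Cx43-deleted library and 0.210 (0.195 to 0.226) in WT C57BL6, against 1.22 (1.17 to 1.28) in WT C57BL6-BALB/c. By this ratio the Cx43-deleted library was nearer to WT C57BL6 than to WT C57BL6-BALB/c, whose background it shares. Its interval did not overlap that of WT C57BL6. The ratio of Fos to Jun was 0.485 (0.450 to 0.523), 3.36 (3.14 to 3.59) and 0.922 (0.877 to 0.968).

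**Figure D3:**
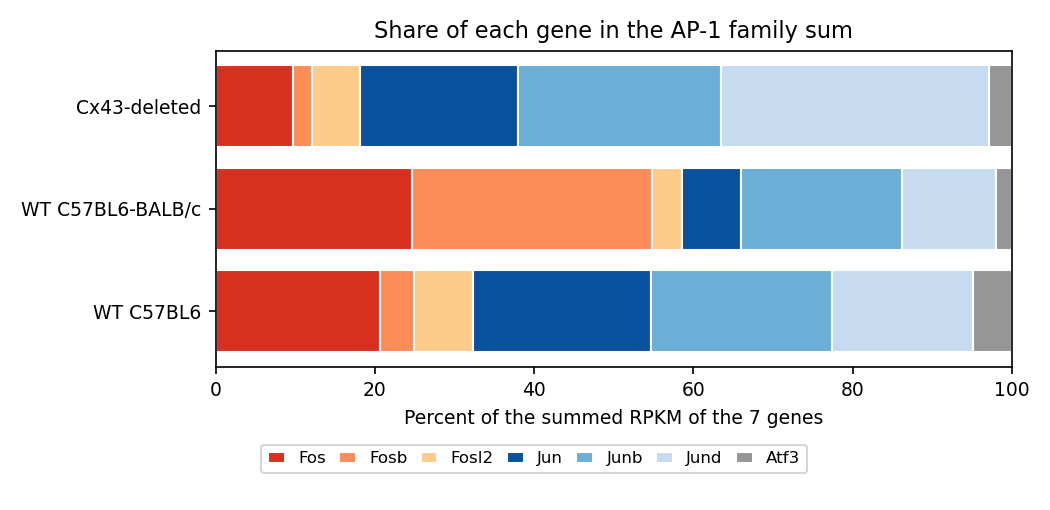
Share of each gene in the summed RPKM of the 7 genes (horizontal axis, percent), with 1 bar per library. Fosb makes up 30.1% of the WT C57BL6-BALB/c bar and under 5% of the others, and Jund makes up 33.6% of the Cx43-deleted bar.

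Set side by side, the folds differed in kind from gene to gene. Fos and Junb were low in the Cx43-deleted library against WT libraries that differed by less than 1.5-fold. Jun, Fosl2 and Atf3 were highest in WT C57BL6, with the Cx43-deleted library nearer to WT C57BL6-BALB/c. Fosb was high in WT C57BL6-BALB/c. Jund had no fold of 1.5 or more in any comparison.

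**Figure D4:**
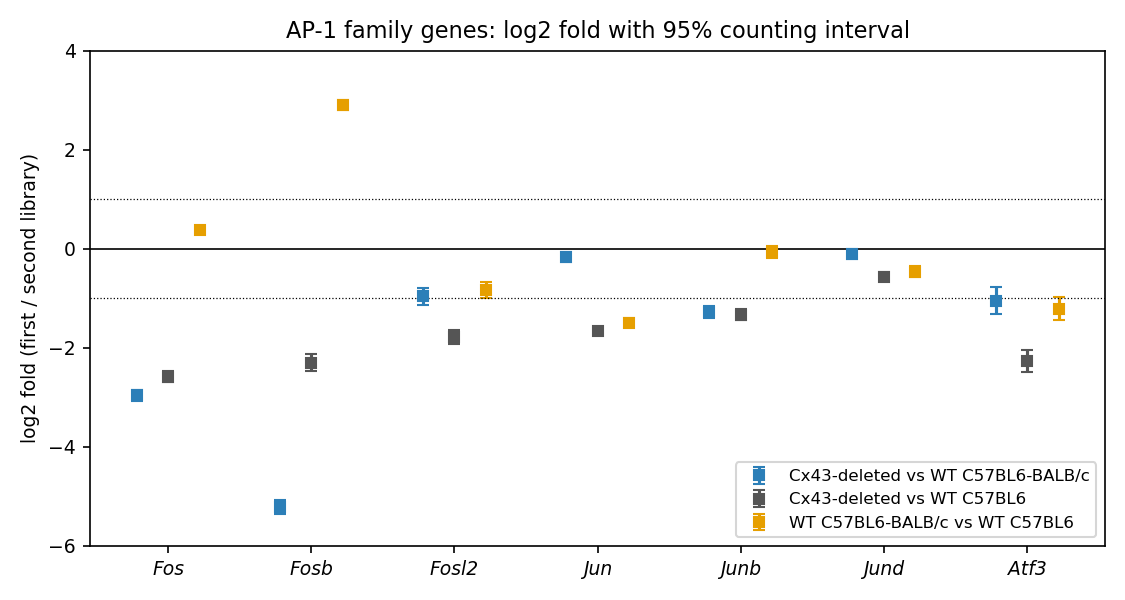
Log2 fold of the 7 genes in 3 comparisons (first over second library named), with 95% exact binomial counting intervals. Dotted lines mark 2-fold. The Cx43-deleted folds lie below 0 for every gene, with the Jund interval against WT C57BL6-BALB/c reaching 0. Between the WT libraries Fosb lies above the upper dotted line, and Jun and Atf3 lie below the lower one.

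Other genes with a pattern like that of Fos or Fosb were sought among 13044 protein-coding genes with a level of 5 CPM or more in 1 library, by the distance between log2 levels over the 3 libraries after centring. The nearest to Fos was Gja1, at a distance of 0.60, followed by Egr2 (0.62), Hspa8 (0.75), Capn11 (0.78) and Hjurp (0.79). Gja1 and Fos share the pattern of a low Cx43-deleted level and close WT levels. No gene was as near to Fosb: Capn11 was at 1.498, Nlrp1a at 1.54, H2-Q10 at 1.55, Fshb at 1.70 and Npas4 at 1.77. Npas4, a neuron-specific immediate early transcription factor, had 4134, 10778 and 2628 reads, or 77.1, 508 and 103 CPM, highest in the library where Fosb was. Fshb, a pituitary hormone subunit, had 3, 140 and 0 reads, H2-Q10 had 8, 361 and 6, and Nlrp1a had 1, 57 and 2. These genes rest on few reads outside WT C57BL6-BALB/c. With 3 libraries such a likeness says little about a gene.

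Other genes of the AP-1 and wider bZIP families had medians closer to those of all genes than the 7 had. Of 22 listed, all 22 passed the level filter. In the Cx43-deleted library 10 were lowest (35.6% of all genes were) and 5 highest (33.2%). By 2-fold, 0 were lowest (0.379% of all genes were) and 0 highest (0.428%). Their median log2 ratio to WT C57BL6-BALB/c was −0.05 (0.0021 with a level filter of 5 CPM), and to WT C57BL6 it was −0.25. Atf2, a JUN partner, was at 646, 648 and 567 CPM, and Mafg, a small Maf protein, at 553, 440.0 and 380.0. Fosl1, the FOS member closest to Fosl2 and named here after its values were seen, was at 7.31, 7.26 and 6.81 CPM. Cebpd, also named after the fact, was the 1 gene of the list called higher against WT C57BL6-BALB/c (1.05% of all genes were), at 14.2 CPM where that library had 6.60, and it was at 20.3 in WT C57BL6. Against WT C57BL6-BALB/c, 0 of 22 were called lower (1.01% of all genes were). Against WT C57BL6, 2 of 22 were called lower (2.91% of all genes were), Cebpb at −1.06 and Batf at −1.04, both named after their values were seen.

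The kinases and factors upstream of AP-1 were not lower as a group. Of 29 measured genes of the list, 15 were highest (33.2% of all genes were) and 6 lowest (35.6%) in the Cx43-deleted library. In any of the 3 comparisons 0 were 2-fold apart. Of all genes, 1.01% were called lower and 1.05% higher against WT C57BL6-BALB/c. Against WT C57BL6 2.91% were called lower, and 3.26% were called between the WT libraries, so 0 of 29 says little. Their median was 0.04 to WT C57BL6-BALB/c and 0.21 to WT C57BL6. Mapk14, the p38 alpha kinase, was at 756, 736 and 652 CPM, and Map2k7, which activates JNK, at 690, 648 and 563. These are RNA levels and say nothing of kinase activity.

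Feedback inhibitors, such as the dual-specificity phosphatases that switch off MAP kinases, lay mostly on the low side. Of 22, 15 were lowest in the Cx43-deleted library (35.6% of all genes were) and 1 was highest there (33.2%). By 2-fold, 0 were lowest (0.379% of all genes were) and 0 highest (0.428%). Their median was −0.21 to WT C57BL6-BALB/c and −0.37 to WT C57BL6. Dusp1, which inactivates p38 and JNK, was at 202, 277 and 639 CPM, high in the same library as Jun. Nab2, a repressor of EGR factors, was at 160, 125 and 158. Against WT C57BL6-BALB/c, 3 of 22 were called lower (1.01% of all genes were), which are named after their values were seen: Dusp5, Rgs2 and Dusp14, at −1.79, −1.66 and −1.16. Against WT C57BL6, 2 of 22 were called lower (2.91% of all genes were), Dusp1 at −1.66 and Zfp36, which destabilises short-lived RNAs and is named after the fact, at −1.17.

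Of 35 known AP-1 targets found in the annotation, 30 passed the level filter. Of these, 19 were lowest in the Cx43-deleted library (35.6% of all genes were) and 4 were highest in it (33.2%). Their median was −0.24 to WT C57BL6-BALB/c and −0.58 to WT C57BL6, the latter −0.40 without the filter. Called lower were 6 of 30 against WT C57BL6-BALB/c (1.01% of all genes) and 7 of 30 against WT C57BL6 (2.91%). The 2 of 30 lower than in each WT library by 2-fold (0.379% of all genes) were Ccn1, a secreted matrix protein, and Thbs1, thrombospondin 1. Ccn1 was at 25.3, 95.8 and 195 CPM, lowest in the Cx43-deleted library and highest in WT C57BL6. Thbs1 was at 20.2, 61.9 and 55.4. Targets with the highest counts went different ways: Vim, the intermediate filament vimentin, was at 753, 1204 and 1227, and Vegfa, the endothelial growth factor, at 781, 598 and 546. Mmp3, Mmp10, Mmp13, Areg and Il6 did not reach the level filter.

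Other immediate early genes lay on the side of the AP-1 genes. In the Cx43-deleted library 22 of 32 were lowest (35.6% of all genes were), 8 by 2-fold or more (0.379%), and 2 were highest (33.2%). Called lower were 10 of 32 against WT C57BL6-BALB/c (1.01% of all genes) and 12 of 32 against WT C57BL6 (2.91%). Their median was −0.29 to WT C57BL6-BALB/c and −0.70 to WT C57BL6. The 5 furthest on the low side were Egr2, Egr1, Nr4a1, Btg2 and Egr4, which differed from the closer of the WT libraries by −1.65, −1.53, −1.41, −1.25 and −1.21 in log2 CPM. Per1, a clock gene, and Sgk1, a kinase, had the highest counts of the list and were not called, at 832, 735 and 669 and at 773, 556 and 851 CPM.

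**Figure D5:**
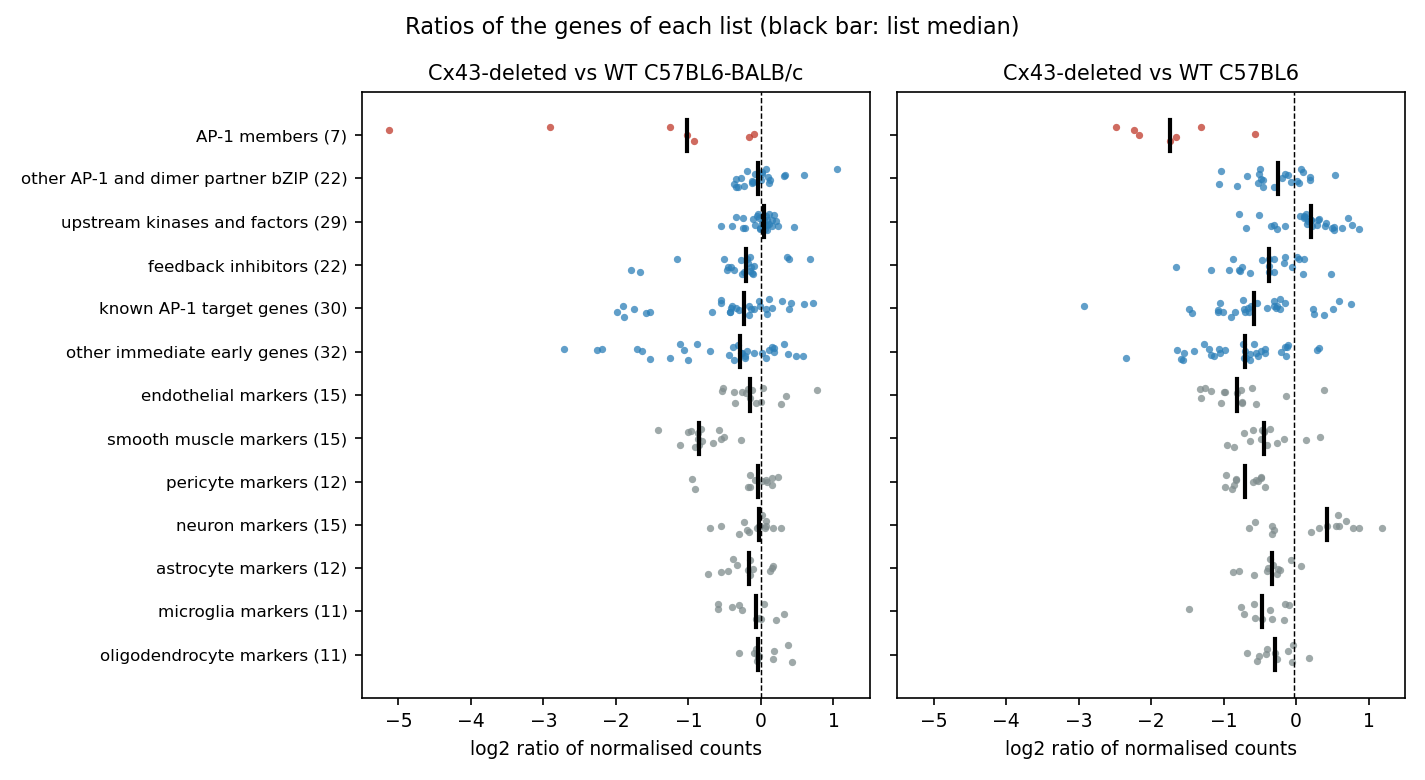
Log2 ratios of the Cx43-deleted library to WT C57BL6-BALB/c (left) and to WT C57BL6 (right), with 1 point per measured gene, 1 row per gene list (number of genes in brackets), black bars at list medians and a dashed line at the median of all genes. The AP-1 genes have a median of −1.02 on the left and −1.74 on the right, the lowest of the 13 lists, and the smooth muscle markers are at −0.85 on the left.

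Cell type markers differed between the libraries as well. For the counts of markers given below, 35.6% of all measured genes were lowest in the Cx43-deleted library and 33.2% were highest. Of 15 smooth muscle markers, 13 were lowest and 0 highest in the Cx43-deleted library, and their median was −0.85 to WT C57BL6-BALB/c and −0.45 to WT C57BL6. Their summed level was 3316, 5449 and 4169 CPM, and Acta2, smooth muscle actin, was at 420.0, 818 and 573. Of 15 endothelial markers, 10 were lowest and 1 highest there, their median was −0.15 and −0.82, and they summed to 10463, 9714 and 15094 CPM. The 1 highest was Slc2a1, named after its values were seen, at 2828, 1653 and 2162 CPM. It made up the largest part of the Cx43-deleted sum. Pericyte markers had sums of 3553, 3839 and 5833, with 6 of 12 lowest and 0 highest in the Cx43-deleted library. Their median was −0.03 to WT C57BL6-BALB/c and −0.71 to WT C57BL6.

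As for endothelial and pericyte markers, neuron and glia medians lay closer to that of all genes against WT C57BL6-BALB/c than against WT C57BL6. Medians to WT C57BL6-BALB/c and WT C57BL6 were −0.16 and −0.34 for astrocytes, −0.06 and −0.46 for microglia, −0.04 and −0.28 for oligodendrocytes. Of 15 neuron markers, 5 were lowest and 6 highest in the Cx43-deleted library, and their median was −0.03 to WT C57BL6-BALB/c and 0.43 to WT C57BL6. The neuron sum was 54990, 47282 and 27427 CPM, most of it from Meg3. Astrocyte markers summed to 2770, 3207 and 3534 (9 of 12 lowest and 1 highest in the Cx43-deleted library), microglia markers to 348, 364 and 513 (7 of 11 lowest, 0 highest), and oligodendrocyte markers to 13423, 13889 and 17322 (6 of 11 lowest, 0 highest). WT C57BL6 was highest for Jun, Junb, Jund, Fosl2 and Atf3, though the Junb interval between the WT libraries includes no difference. The WT C57BL6 library also had the highest endothelial, pericyte, astrocyte, microglia and oligodendrocyte sums and the lowest neuron sum. The WT C57BL6-BALB/c library, which had the highest Fos and Fosb, had the highest smooth muscle sum. No marker in any list had 0 reads in any library. The part of cell make-up in the AP-1 differences was not tested, nor was that of depth, the Cx43-deleted library having more than 2 times the reads of each other library.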

How the data were processed

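The authors deposited, per the file headers, a whole-number read count for each of 82813 Ensembl transcripts in each library, with no normalisation, plus the fraction of the library that the count makes up, from which the library totals were taken. Transcript lengths and bases without a read are also theirs. Reads were counted once for each transcript they overlap (2.45 to 2.55 counts per read), so the transcripts of a gene are not independent. The kit named in the labels' protocols (TruSeq v2) loses strand information. The submitters' processing notes name mm10, Bowtie and CASAVA 1.8.2. The sources used here do not give the counting program or the annotation release.

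Coordinates in the tables reach 197054592 on chromosome 1, past the last GRCm38 gene (195323493), so they were not used. By identifier, 69375 transcripts (83.8%) had an entry in GENCODE M21 (GRCm38), and 213 of these on another chromosome were left out. Counts were summed per gene and scaled by library total times the TMM factor from edgeR 4.0.16 (R 4.3.3), which was 0.976 to 1.02. Log2 ratios used a pseudocount of 0.5, which understates the ratios of low genes. Intervals were computed with scipy 1.17.1 in Python 3.11.15. Promoters come from RefSeq (GRCm38.p6). With single libraries no test could be made. The steps were tested on simulated counts.

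The members, gene lists and naming rule were chosen with earlier results of these data known. In each list, genes 2-fold from both WT libraries were named, up to 5 each way, with up to 2 of the highest counts, and the 5 genes nearest to Fos and to Fosb. Alternatives were pseudocounts of 0.1 and 2, scaling by total, median-of-ratios size factors (DESeq2 1.42.0), the most abundant transcript alone, and a level filter of 5 CPM or none.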

Additional observations from a re-analysis of the deposited data

How the results depend on the processing

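Under 7 alternatives, the numbers of AP-1 genes called in the 4 ways counted above stayed within 1.5 times those reported, in 28 of 28 values. Atf3 lost its call against WT C57BL6-BALB/c with a pseudocount of 2 and with the most abundant transcript alone, and the calls of the other 6 genes were the same in every alternative. Of 147 log2 ratios of the 7 genes, 0 changed sign and 3 moved beyond their counting interval, all with a pseudocount of 2 (Fosb −4.89 and −2.04, Atf3 −1.94 against WT C57BL6). Part of these values could not move. The level filters leave the ratio of a gene as it is, and all 7 genes reach 5 CPM, so their counts stay too. The most abundant transcript alone changes nothing for genes with 1 transcript, which are all but Fos and Atf3. Of 273 list medians, 263 stayed within the counting interval, and 1 changed sign: that of the other bZIP genes against WT C57BL6-BALB/c, at 0.0021 with a level filter of 5 CPM. The median of all genes moved by less than 0.1 on the log2 scale under each scaling. No paired analysis was possible because each group has 1 library, and for the same reason no library could be left out within a group. Intervals cover counting error only. The smallest count behind a ratio of the 7 genes was 207 reads (Atf3, WT C57BL6-BALB/c).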
